A study of Mus musculus with 6 samples.

Results

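The tumour necrosis factor (TNF) ligands and their receptors were followed by gene in CD4 T cells short of arginine. Members were the genes whose only symbol on a probe set began with Tnfsf or Tnfrsf and a digit, together with Tnf, Lta, Ltb, Ltbr, Fas, Fasl, Cd27, Cd70, Cd40 and Cd40lg. Where a gene had several such probe sets, the one with the highest mean of the 6 arrays was used. This gave 39 genes of 22180 measured, 15 ligands and 24 receptors, each with 1 such probe set. Tnfsf12 and Tnfsf13 shared a probe set with another symbol and were left out by this rule. The cells came from OT-II transgenic mice, whose T cell receptor recognises an ovalbumin peptide, aged 12 to 16 weeks. The 2 groups were CD4 T cells kept for 72 hours in low arginine medium (12 uM, 1% of the usual concentration), on 3 arrays, and in control medium, also on 3 arrays. Both media held dialyzed serum, and both groups carried the transgene and were stimulated with the peptide and antigen-presenting cells before CD4 cells were purified again. The description of the study names 6 mice, without saying which mice or pools gave which array.

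Ligands of the family are mostly membrane proteins that act as trimers, on the cell's surface or after being cut loose, and cluster their receptors. Receptors with a death domain can start apoptosis through caspases, while others recruit TRAF adaptors and release NF-kappa-B factors into the nucleus. On activated CD4 T cells the family supplies signals of costimulation (Tnfrsf4, Tnfrsf9, Tnfrsf18, Cd27), help to B and dendritic cells (Cd40lg), inflammatory cytokines (Tnf, Lta) and the death pair Fasl and Fas.

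Levels are the authors' log2 expression values, and a change is the low arginine mean minus the control mean on that scale. A level says how bright a probe set was and is not set against that of another gene. With 3 arrays a group the precision is limited, and the p-values measure the spread between these samples. Median levels per array were 2.968 to 3.033. Control replicate 1 lay farther from its group than any other array, by a median of 0.46 over the members tested and 0.21 over all genes tested, while the other arrays differed by 0.12 to 0.25 over the members. Of the 9 CD4 T cell markers tested, Trat1 rose, Themis fell and the others did not pass. Over all genes tested 5.19% were called higher and 6.98% lower (limma adjusted p below 0.05). The T cell genes Cd3e (10.8 to 10.9 in low arginine, 10.7 to 10.8 in control medium) and Cd4 (10.0 to 10.3 in low arginine, 10.2 to 10.4 in control medium) were bright in both groups. In such bulk samples, fewer cells of a type and less RNA per cell cannot be told apart.

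Ltb, Tnf and Lta, neighbouring ligand genes, and the members with the largest rise and fall are shown by their promoters, because Tnf and Lta rose while their neighbour Ltb was not called. Each line holds the 250 bases before the gene's outermost start in RefSeq, assembly GRCm38.p6, read 5′ to 3′ along the gene, and capitals mark a match to the NF-kappa-B motif, the AP-1 motif TGANTCA or the amino acid response element core TGATGNAA, on either strand.
Tnf promoter, chr17:35202008-35202257, minus strand: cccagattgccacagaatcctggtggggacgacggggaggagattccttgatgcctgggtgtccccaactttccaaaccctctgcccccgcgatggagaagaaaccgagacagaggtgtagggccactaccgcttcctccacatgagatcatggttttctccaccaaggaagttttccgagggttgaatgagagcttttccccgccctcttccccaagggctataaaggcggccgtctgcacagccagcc
Lta promoter, chr17:35205352-35205601, minus strand: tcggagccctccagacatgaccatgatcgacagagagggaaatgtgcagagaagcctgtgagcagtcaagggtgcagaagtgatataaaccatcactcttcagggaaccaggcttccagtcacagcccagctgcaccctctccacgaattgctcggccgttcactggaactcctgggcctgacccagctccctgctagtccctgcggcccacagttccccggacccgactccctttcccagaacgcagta
Ltb promoter, chr17:35194257-35194506, plus strand: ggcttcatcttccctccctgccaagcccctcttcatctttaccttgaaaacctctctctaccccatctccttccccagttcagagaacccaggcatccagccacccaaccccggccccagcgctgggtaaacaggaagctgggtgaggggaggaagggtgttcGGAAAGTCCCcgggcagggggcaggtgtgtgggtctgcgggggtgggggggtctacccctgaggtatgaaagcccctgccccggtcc
Tnfrsf19 promoter, chr14:61046856-61047105, minus strand: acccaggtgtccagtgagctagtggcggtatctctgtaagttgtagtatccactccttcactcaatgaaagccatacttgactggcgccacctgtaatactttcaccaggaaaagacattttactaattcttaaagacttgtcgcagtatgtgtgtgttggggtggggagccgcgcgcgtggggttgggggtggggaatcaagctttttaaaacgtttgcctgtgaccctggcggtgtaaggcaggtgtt
Fasl promoter, chr1:161788496-161788745, minus strand: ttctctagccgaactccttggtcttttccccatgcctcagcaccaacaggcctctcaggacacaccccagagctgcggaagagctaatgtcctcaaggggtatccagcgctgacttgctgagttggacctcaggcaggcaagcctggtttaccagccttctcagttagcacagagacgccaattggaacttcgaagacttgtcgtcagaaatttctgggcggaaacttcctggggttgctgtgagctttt

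The capitals in the Ltb promoter are an NF-kappa-B match that begins 87 bases before the start, and the windows of Tnf, Lta, Tnfrsf19 and Fasl held none of the 3 motifs. Of 28 tested members with an entry in the promoter table, 2 (Ltb and Tnfrsf8, 7.14%) held the NF-kappa-B motif, against 7.03% of 27025 promoters. The AP-1 motif stood in 3 of them (Fas, Tnfrsf8 and Tnfsf14, 10.7%), against 6.85% of all promoters, and the amino acid response element core in 0, against 3.53%. None of the 8 genes that changed held a match, which says only that these letters are not in these windows.

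The family held 8 changed genes among the 36 tested. Higher in low arginine were the ligands Tnfsf11, Tnfsf8, Lta and Tnf and the receptors Tnfrsf19 and Tnfrsf25, and lower were the death ligand Fasl and the costimulatory receptor Tnfrsf9. Cd70, Tnfsf18 and Tnfrsf17 lay under the limit for dim genes, 2.48, in their mean over all arrays and were not tested. The share called was 22.2%, against 12.2% of all 14787 genes tested (limma, Benjamini-Hochberg adjusted p below 0.05). It was 5 of 13 ligands (38.5%) and 3 of 23 receptors (13.0%). In the direction of the rises it was 4 ligands and 2 receptors, against 5.19% of all genes, and in that of the falls 1 and 1, against 6.98%. The groups did not overlap for 20 of the 36 members, against 32.2% of all genes. At an unadjusted p below 0.05 there were 18 of the 36, against 27.3% of all genes. The median change was 0.19 over the ligands and 0.14 over the receptors, against 0.01 over all genes, and the median size of change was 0.56 and 0.31, against 0.18. Leaving out low arginine replicate 2 moved the ligand median to 0.12 and leaving out control replicate 1 moved it to 0.30, while the receptor median was 0.06 without control replicate 3 and 0.08 after quantile normalization or 75th percentile centring. Without control replicate 1, 15 members passed, against 22.5% of all genes in that fit. With array weights, which gave control replicate 2 a weight of 5.193 and control replicate 1 a weight of 0.239, 21 passed, against 37.3% of all genes. Without control replicate 2, 6 members passed, against 3.38% of all genes (500 of 14787). Leaving out a low arginine array left 6 or 7 members and 509 to 995 genes.

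**Figure D1:**
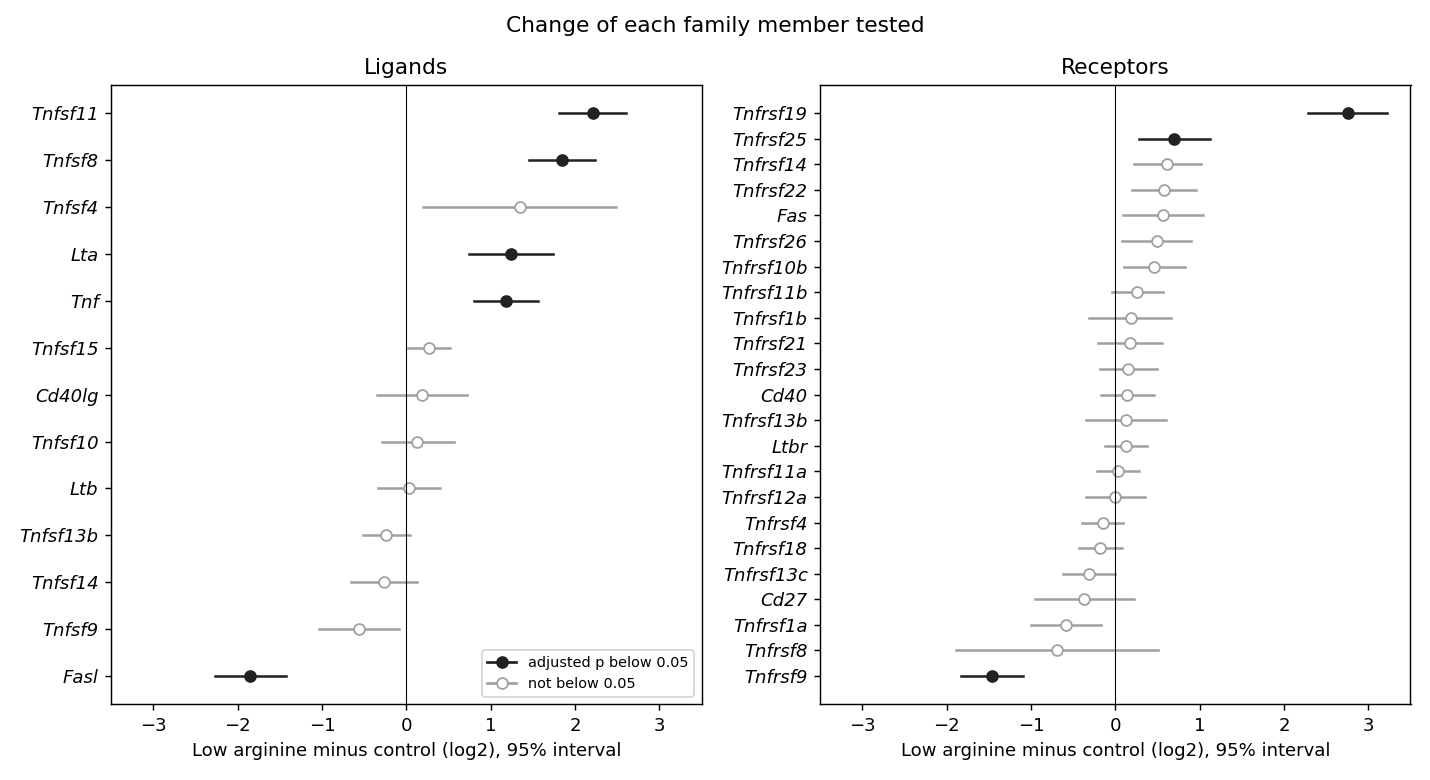
Change of each of the 36 members tested, given as the log2 value in low arginine less that in control medium (x axis), with its 95% interval, ligands in the left panel and receptors in the right, filled where the adjusted p was below 0.05. Changes ran from -1.85 to 2.21 among ligands and from -1.46 to 2.76 among receptors.

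Among the ligands, the largest rise was in Tnfsf11, which encodes RANKL, the ligand of Tnfrsf11a that drives osteoclast formation and supports dendritic cells. Tnfsf11 had levels of 7.09, 7.26 and 6.79 in low arginine and 4.56, 5.00 and 4.95 in control medium. Every low arginine array lay above every control array. The change was 2.21 ± 0.17 (SE), a 4.62-fold rise (limma adjusted p = 6.76e-04). Its receptors did not pass: Tnfrsf11a, or RANK, changed by 0.03 (95% interval -0.22 to 0.28) and Tnfrsf11b, the secreted decoy osteoprotegerin, by 0.26 (-0.04 to 0.56), both at levels near the dim limit.

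Tnfsf8, the ligand of CD30, had the next largest rise among the ligands. Its levels were 9.37, 9.31 and 9.13 in low arginine and 7.10, 7.44 and 7.74 in control medium. The groups lay apart, and the change was 1.84 ± 0.17, or 3.59-fold (limma adjusted p = 0.00159). Its receptor Tnfrsf8, which is CD30, had levels of 5.86, 5.61 and 4.63 in low arginine and 7.24, 5.38 and 5.56 in control medium. These groups overlapped, control replicate 1 stood alone at the top, and the change of -0.69 ± 0.52 did not pass (limma adjusted p = 0.457). Without control replicate 1 the change of Tnfrsf8 was -0.10. Tnfsf15, the next gene to Tnfsf8 on the RefSeq assembly and the ligand of Tnfrsf25, did not pass (limma adjusted p = 0.157). It changed by 0.27 (95% interval 0.02 to 0.52) at levels near the dim limit, 2.73 to 2.81 in low arginine and 2.36 to 2.59 in control medium.

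Tnf and Lta, which encode TNF and lymphotoxin alpha, rose side by side. Tnf had levels of 9.0, 9.27 and 9.23 in low arginine and 8.31, 7.81 and 7.82 in control medium, a change of 1.18 ± 0.16 or 2.27-fold (limma adjusted p = 0.00639). Lta had levels of 8.90, 9.09 and 9.27 in low arginine and 8.29, 7.79 and 7.45 in control medium, a change of 1.24 ± 0.21 or 2.36-fold (limma adjusted p = 0.0125). For both genes the groups lay apart, and control replicate 1 was the highest control. The call of Lta ended without control replicate 2 (limma adjusted p = 0.0617), low arginine replicate 2 (0.0602) or low arginine replicate 3 (0.0592), with changes of 1.15 to 1.24. Ltb, whose product joins lymphotoxin alpha in a membrane trimer that binds Ltbr, lies next to Tnf with 0 protein-coding genes between them, as Tnf does to Lta. Its levels were 9.03, 9.32 and 9.04 in low arginine and 8.84, 9.36 and 9.10 in control medium. The groups overlapped, and the interval of its change of 0.03 ran from -0.34 to 0.40. The test of the difference between Ltb and its neighbours was not made.

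Fasl was the ligand that fell. It encodes Fas ligand, which kills cells that carry Fas. Its levels were 3.90, 3.94 and 3.68 in low arginine and 5.30, 5.81 and 5.95 in control medium. All low arginine arrays lay below all controls, and the change was -1.85 ± 0.18, or 3.60-fold lower (limma adjusted p = 0.00203). Fas itself, the death receptor it binds, had levels of 7.63, 7.90 and 7.76 in low arginine and 6.73, 7.36 and 7.50 in control medium. The groups did not overlap, but the change of 0.57 ± 0.20 did not pass (limma adjusted p = 0.119). Markers of CD8 and NK cells, which also make Fas ligand, were measured beside it. Of 5 markers tested 1 was called, Klrk1, lower by 1.04 on the log2 scale (limma adjusted p = 0.0134, lost without control replicate 2 or low arginine replicate 3, at 0.0638 to 0.065). The NK markers Ncr1 and Klrb1c lay under the dim limit, and Cd8b1 changed by -0.66 (adjusted p = 0.0632). Eomes, a transcription factor of CD8 and NK cells, went the other way, by 0.79 with no overlap (limma adjusted p = 0.0779). At an unadjusted p below 0.05 1 marker was higher and 3 lower, against 13.3% and 13.9% of all genes. The shares of all genes called were 5.19% higher and 6.98% lower. The summed linear signal of this list was 140 to 181 in low arginine and 174 to 221 in control medium, and its part in the change of Fasl was not tested.

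The call of Tnfsf4, which encodes the OX40 ligand, depended on control replicate 1. It had levels of 5.02, 5.26 and 4.33 in low arginine and 4.72, 3.17 and 2.69 in control medium. Only control replicate 1 reached the low arginine range. The change was 1.35 ± 0.49 and did not pass with all arrays (limma adjusted p = 0.125). Without control replicate 1 it was 1.94 ± 0.27 and passed (0.00305). Tnfsf9, the ligand of Tnfrsf9, had levels of 4.05, 4.40 and 3.74 in low arginine and 4.32, 4.87 and 4.69 in control medium. The groups overlapped, and its change of -0.56 ± 0.21 passed without control replicate 1 (-0.72, limma adjusted p = 0.0322) but not with all arrays (0.123).

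**Figure D2:**
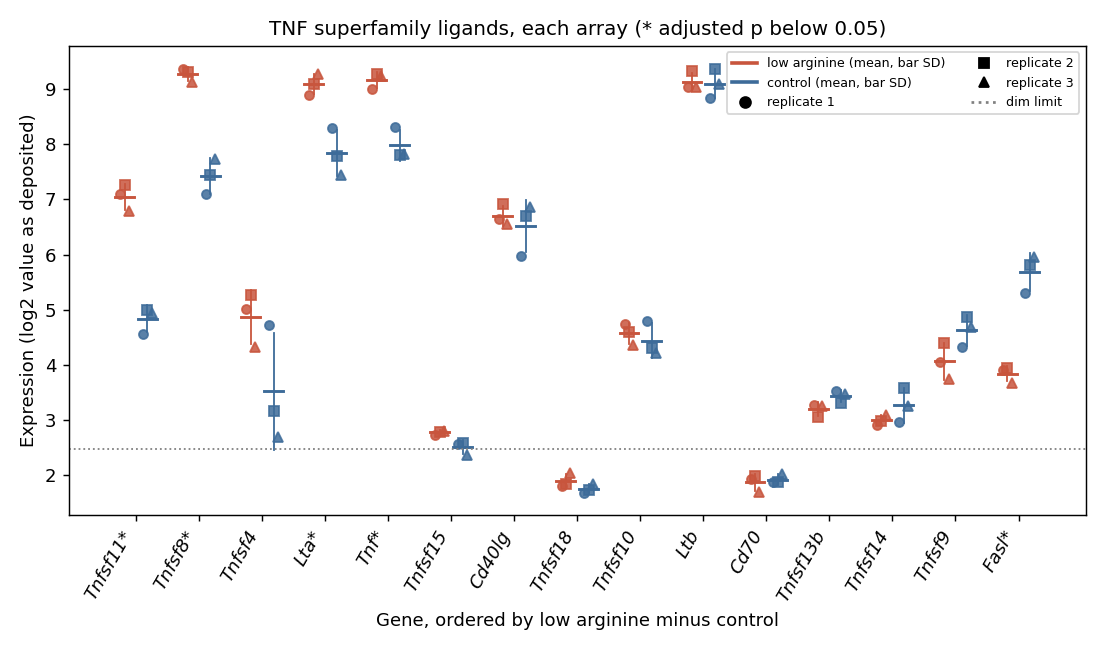
Level of the 15 ligand genes on each array (y axis, log2 value as deposited), low arginine to the left of control for each gene, with the mean as a line and the SD as a bar over 3 arrays, a dotted line at the dim limit of 2.48 and a star where the adjusted p was below 0.05. Tnfsf11, Tnfsf8, Lta and Tnf were higher in low arginine with no overlap, Fasl was lower, and control replicate 1 of Tnfsf4 sits inside the low arginine range.

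The remaining ligands did not pass. Cd40lg, the CD40 ligand through which CD4 cells help B cells, had levels of 6.65, 6.91 and 6.55 in low arginine and 5.98, 6.70 and 6.86 in control medium, and the interval of its change ran from -0.35 to 0.72. Tnfsf10, the TRAIL gene, changed by 0.13 (-0.29 to 0.56). Tnfsf14, whose product LIGHT binds Tnfrsf14 and Ltbr, changed by -0.27 (-0.66 to 0.12), and Tnfsf13b, the B cell survival factor BAFF, by -0.24 (-0.52 to 0.04). Levels of Cd70, the ligand of Cd27, were 1.70 to 1.99 in low arginine and 1.87 to 2.03 in control medium. Those of Tnfsf18, the ligand of Tnfrsf18, were 1.81 to 2.04 in low arginine and 1.68 to 1.85 in control medium.

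Among the receptors, Tnfrsf19 had the largest change of the family. It encodes TROY, a receptor known mainly from the nervous system, hair follicles and epithelial stem cells. Levels of Tnfrsf19 were 7.14, 7.23 and 6.84 in low arginine and 4.02, 4.18 and 4.73 in control medium. The lowest low arginine array lay above the highest control array by more than the whole range within either group. The change was 2.76 ± 0.20, or 6.76-fold (limma adjusted p = 6.53e-04). Receptors of the family outside the naming rule did not pass: Ngfr changed by -0.32, Edar by -0.10 and Relt by -0.19. The receptor Eda2r and its ligand gene Eda lay under the dim limit and were not tested.

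Tnfrsf9, which encodes the costimulatory receptor CD137 that T cells acquire on activation, was the receptor that fell. Its levels were 8.89, 8.79 and 8.62 in low arginine and 9.90, 10.39 and 10.39 in control medium. No arrays overlapped, and the change was -1.46 ± 0.16, or 2.75-fold lower (limma adjusted p = 0.00303). The costimulatory receptors Tnfrsf4 and Tnfrsf18 did not pass. Tnfrsf4, or OX40, had levels of 9.13, 9.17 and 9.01 in low arginine and 9.22, 9.29 and 9.24 in control medium. Tnfrsf18, or GITR, had levels of 9.29, 9.43 and 9.24 in low arginine and 9.58, 9.43 and 9.47 in control medium. Both genes, neighbours on the RefSeq assembly, had changes of -0.15 (95% interval -0.39 to 0.09) and -0.18 (-0.43 to 0.08).

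Cd27, a receptor that sustains T cell survival, had levels of 8.15, 8.13 and 7.98 in low arginine and 7.82, 8.68 and 8.86 in control medium. Control replicate 1 lay below every low arginine array and the other controls above them. The change was -0.37 ± 0.25 with all arrays (limma adjusted p = 0.417) and -0.68 ± 0.12 without control replicate 1 (0.00634). Tnfrsf14, or HVEM, which binds LIGHT and the inhibitory receptor BTLA, had levels of 7.76, 7.77 and 7.66 in low arginine and 6.75, 7.20 and 7.40 in control medium. The groups lay apart, and the change of 0.61 ± 0.17 fell just short (limma adjusted p = 0.0564). It passed without control replicate 1 (0.43, adjusted p = 0.0327) or control replicate 3 (0.76, 0.0355). Tnfrsf1b, the second TNF receptor, had levels of 6.26, 6.35 and 7.03 in low arginine and 6.46, 6.20 and 6.45 in control medium, which overlapped, and Cd40 changed by 0.14 (-0.17 to 0.46).

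Tnfrsf4, Tnfrsf9 and Tnfrsf18 are also known from regulatory T cells, and markers of those cells were measured beside them. Foxp3, their defining factor, had levels of 8.86, 8.71 and 9.97 in low arginine and 7.59, 7.09 and 6.92 in control medium, a change of 1.98 (limma adjusted p = 0.0117, and 0.0591 without control replicate 2). Gpr83 rose by 1.75 (adjusted p = 0.00474), Ctla4 fell by 1.62 (8.26e-04), and the other 4 of the 7 markers did not pass. Among those 4, Lrrc32 changed by 0.84 (limma adjusted p = 0.102). At an unadjusted p below 0.05 3 of the markers were higher and 1 lower, against 13.3% and 13.9% of all genes. The shares of all genes called were 5.19% higher and 6.98% lower. The summed linear signal of the list was 3020 to 4410 in low arginine and 2630 to 3120 in control medium. Its part in the levels of these receptors was not tested.

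Of the receptors with a death domain, Tnfrsf25 was called. It encodes DR3, the receptor of Tnfsf15 on T cells. Its levels were 5.79, 5.94 and 6.25 in low arginine and 4.98, 5.34 and 5.55 in control medium. The groups lay apart, and the change was 0.70 ± 0.18 or 1.63-fold (limma adjusted p = 0.045). This call held in 7 of 15 alternatives, with changes of 0.55 to 0.83. It ended when control replicate 2 or any of the low arginine arrays was left out (limma adjusted p = 0.0675 to 0.154), and in 4 other settings at 0.0508 to 0.0527.

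Tnfrsf1a, the TNF receptor with a death domain, had levels of 6.18, 6.31 and 6.19 in low arginine and 6.40, 7.05 and 6.98 in control medium. The low arginine arrays were all lower, but the change of -0.58 ± 0.18 did not pass (limma adjusted p = 0.0768). It passed without control replicate 1 (-0.79, adjusted p = 0.00272). Tnfrsf10b, the TRAIL death receptor of mice, had levels of 6.49, 6.49 and 6.51 in low arginine and 6.31, 5.72 and 6.08 in control medium. Here the low arginine arrays were all higher, by 0.46 ± 0.16 (limma adjusted p = 0.1; without control replicate 1, 0.60 and 0.0156). Tnfrsf21, or DR6, changed by 0.17 (95% interval -0.21 to 0.55).

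Tnfrsf22, Tnfrsf23 and Tnfrsf26 form a cluster on the RefSeq assembly with 0 protein-coding genes between neighbours. The products of Tnfrsf22 and Tnfrsf23 are decoy receptors for TRAIL in the mouse. Tnfrsf22 had levels of 5.74, 5.99 and 5.92 in low arginine and 5.62, 5.02 and 5.27 in control medium, and Tnfrsf26 had 7.52, 7.53 and 7.25 in low arginine and 6.59, 7.03 and 7.21 in control medium. Both were higher with no overlap, and neither passed (changes of 0.58 and 0.49, limma adjusted p = 0.061 and 0.121), while Tnfrsf22 passed without control replicate 1 (0.74, 0.00679). Tnfrsf23 overlapped between the groups and changed by 0.15 (95% interval -0.18 to 0.49).

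**Figure D3:**
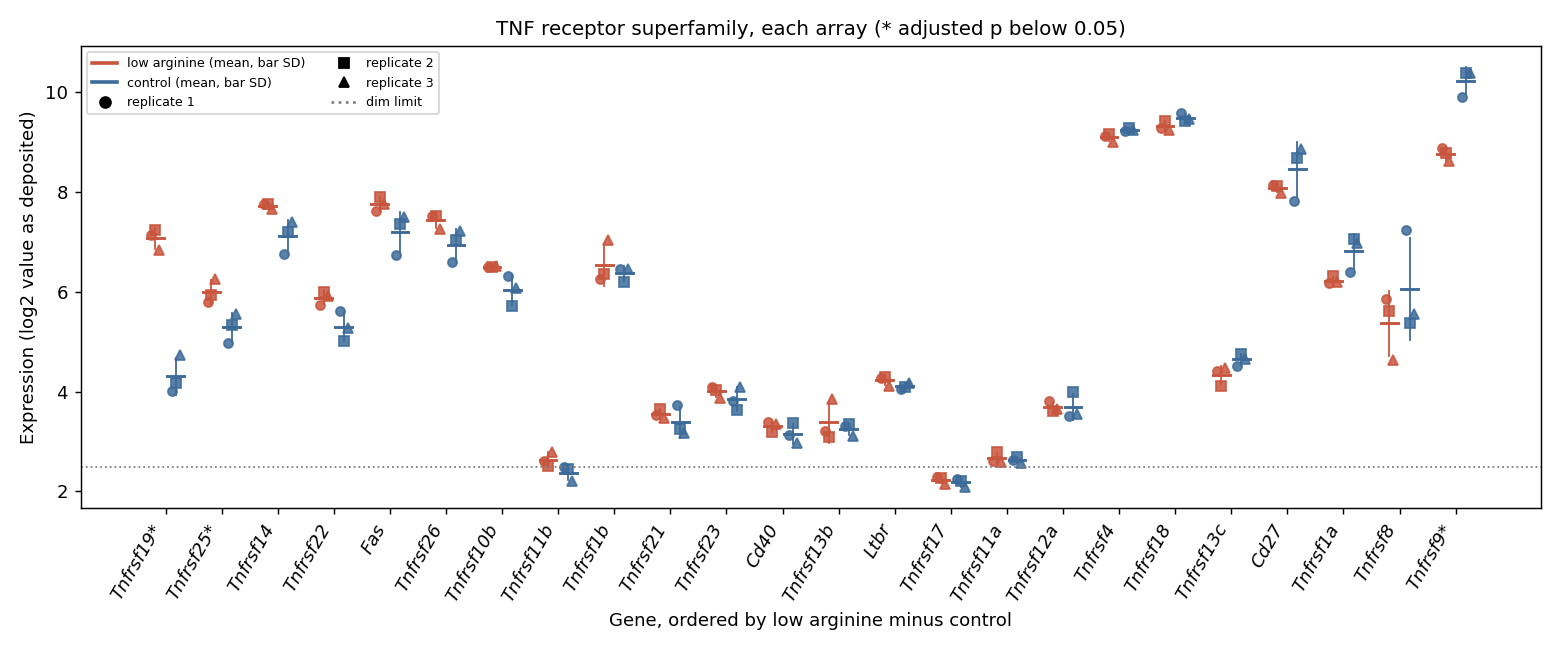
Level of the 24 receptor genes on each array (y axis, log2 value as deposited), low arginine to the left of control for each gene, with the mean as a line and the SD as a bar over 3 arrays, a dotted line at the dim limit of 2.48 and a star where the adjusted p was below 0.05. Tnfrsf19 stands far above its controls, Tnfrsf9 below them, and Tnfrsf8 in control medium has the widest spread (SD 1.03).

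The receptors of other cells given here were not called, and Tnfrsf17 was not tested. For the B cell survival receptors, levels of Tnfrsf13b were 3.09 to 3.85 in low arginine and 3.11 to 3.34 in control medium, and those of Tnfrsf17 were 2.15 to 2.28 in low arginine and 2.08 to 2.25 in control medium. Tnfrsf13c, the BAFF receptor, had levels of 4.41, 4.12 and 4.47 in low arginine and 4.52, 4.75 and 4.66 in control medium, lower with no overlap, and its change of -0.31 ± 0.13 did not pass (limma adjusted p = 0.175). Of 6 B cell markers tested, 0 were called by limma (0 at an unadjusted p below 0.05), Ms4a1 lay under the dim limit, and their summed linear signal was 47.1 to 50.6 in low arginine and 47.3 to 51.9 in control medium. Tnfrsf12a, the TWEAK receptor, changed by 0.00 (95% interval -0.35 to 0.35) and Ltbr by 0.12 (-0.12 to 0.37). Of 5 myeloid markers tested 0 were called by limma (0 at an unadjusted p below 0.05) and Lyz2, Adgre1 and Cd14 lay under the limit. Of 5 dendritic cell markers 0 were called by limma (1 at an unadjusted p below 0.05), and Siglech lay under the limit. That marker was Ccr7, a homing receptor that T cells also express, with a change of 0.83 (limma adjusted p = 0.175). The summed linear signal of the dendritic list was 1230 to 1550 in low arginine and 435 to 1120 in control medium. Most of that signal came from Ccr7, at 10.22 to 10.57 in low arginine and 8.66 to 10.08 in control medium. Of 4 plasma cell markers tested 1 was called, the repressor Prdm1, which effector T cells also express. Prdm1 fell by 1.36 (limma adjusted p = 0.00474). Irf4 went the other way, by 0.54 (limma adjusted p = 0.233). Sdc1 and Mzb1 changed by 0.03 and -0.03, and Jchain lay under the limit. At an unadjusted p below 0.05 1 of the plasma cell markers was lower and 0 higher. The median change of this list was 0.0. Its summed linear signal was 567 to 741 in low arginine and 371 to 677 in control medium. Most of that signal came from Irf4, at 9.02 to 9.45 in low arginine and 8.14 to 9.22 in control medium. Of 4 MHC class II markers tested 1 was called, H2-Ab1, a gene of antigen-presenting cells, which fell by 3.06 (limma adjusted p = 6.02e-04). H2-Aa lay under the limit, and H2-Eb1 (0.02), Ciita (-0.08) and H2-DMa (-0.25) were not called. H2-DMa was lower with no overlap (limma adjusted p = 0.157). At an unadjusted p below 0.05 2 of the class II markers were lower and 0 higher. The summed linear signal of the class II list was 80.6 to 85.2 in low arginine and 169 to 255 in control medium. Most of that difference came from H2-Ab1, at 4.09 to 4.23 in low arginine and 6.68 to 7.48 in control medium. For the marker lists given here the shares over all genes were 5.19% called higher and 6.98% called lower. At the unadjusted p they were 13.3% higher and 13.9% lower. The part of these marker lists in the levels of these receptors was not tested.

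Ligands were set beside their receptors through 22 known pairs. Of 17 pairs with both genes tested, the ligand was called in 7, the receptor in 2, both in 0 and neither in 8. Tnf and Tnfsf11 recur, so the 7 pairs hold 5 called ligands. Of the members tested, 5 of 13 ligands (38.5%) and 3 of 23 receptors (13.0%) were called, against 12.2% of all genes. Tnf rose by 1.18 while Tnfrsf1a changed by -0.58 and Tnfrsf1b by 0.18. Fasl fell by 1.85 while Fas changed by 0.57, and Tnfsf8 rose by 1.84 while Tnfrsf8 changed by -0.69. Tnfsf9 and Tnfrsf9 lay lower together, with changes of -0.56 and -1.46, and Tnfsf9 was not called. The difference between the partners of a pair was not tested, and pairs share genes.

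**Figure D4:**
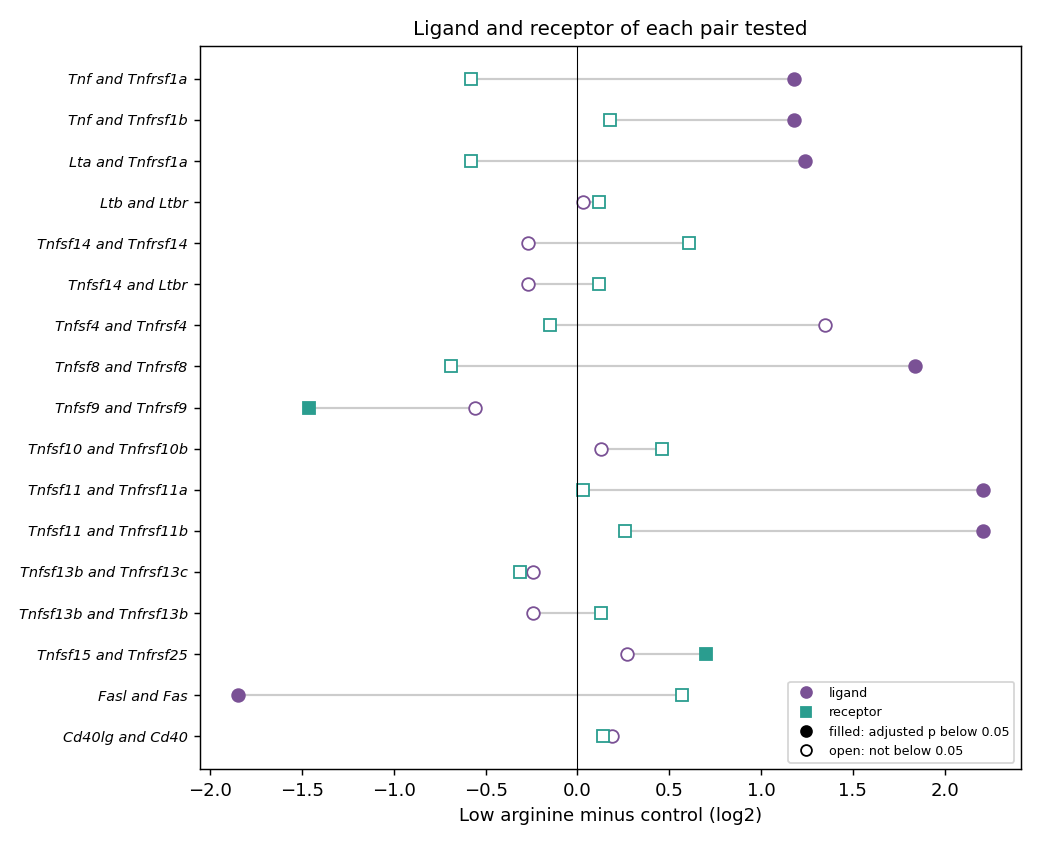
Change of the ligand (circle) and the receptor (square) of the 17 pairs tested (x axis, log2 units, low arginine minus control), filled where the adjusted p was below 0.05. In 7 pairs the ligand is filled, in 2 the receptor and in 0 both, and 12.2% of all genes tested passed.

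Genes that carry the receptors' signal were counted from lists that were chosen with earlier results of these data known. Of 12 NF-kappa-B kinases and factors tested, 3 rose and 0 fell (median change 0.33, against 0.01 over all genes), and at an unadjusted p below 0.05 6 were higher and 1 lower. For these lists the shares over all genes were 5.19% called higher and 6.98% called lower, and 13.3% higher and 13.9% lower at the unadjusted p. Nfkb2, the p100 precursor of the noncanonical branch, had levels of 8.12, 8.15 and 7.94 in low arginine and 6.84, 7.28 and 7.17 in control medium, a change of 0.97 ± 0.14 (limma adjusted p = 0.00776). Rel rose by 0.89 (adjusted p = 0.032) and Rela by 0.37 (0.0496), while Relb changed by 0.14 (0.764). Rel lost its call when control replicate 2 or any of the low arginine arrays was left out (limma adjusted p = 0.0733 to 0.121), and Rela in 10 of 15 alternatives (0.0502 to 0.158).

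Of 10 inhibitors and feedback genes, 3 rose and 0 fell (median 0.33), and at an unadjusted p below 0.05 5 were higher and 0 lower. Nfkbid, an atypical nuclear inhibitor, had levels of 7.54, 7.92 and 8.20 in low arginine and 6.58, 6.34 and 6.36 in control medium, a change of 1.46 ± 0.18 (limma adjusted p = 0.00428). Nfkbib rose by 0.80 (adjusted p = 0.00989) and Nfkbia, the classical inhibitor, by 0.61 (0.0409). The deubiquitinase Tnfaip3 changed by 0.14 (limma adjusted p = 0.729). Nfkbib did not pass without control replicate 2 or low arginine replicate 2 (0.0532 and 0.0527), and Nfkbia in 6 of 15 alternatives (0.0533 to 0.141).

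The TRAF adaptors and ubiquitin ligases had 2 rises and 0 falls among 17 (median 0.09), and at an unadjusted p below 0.05 4 were higher and 0 lower. Traf6 rose by 0.91 (limma adjusted p = 0.0476) and Traf5 by 0.58 (0.044), and each lost its call in 9 of 15 alternatives (0.051 to 0.158). Traf1 (-0.02), Traf2 (0.09) and Birc3 (-0.06) changed by less than their standard errors, which were 0.27, 0.17 and 0.13. In the death branch 2 of 9 fell and 0 rose (median -0.06), and at an unadjusted p below 0.05 1 was higher and 2 lower. The executioner caspase Casp6 had levels of 5.22, 5.37 and 5.42 in low arginine and 8.27, 7.06 and 6.91 in control medium, a change of -2.08 ± 0.33 (limma adjusted p = 0.00958). Ripk3, the kinase of necroptosis, had levels of 5.93, 5.30 and 5.61 in low arginine and 7.39, 6.83 and 6.88 in control medium, a change of -1.42 ± 0.21 (limma adjusted p = 0.00771). Casp8, the initiator caspase, changed by -0.06 and its inhibitor Cflar by 0.18, neither called. Adam17, the protease that sheds TNF, changed by -0.02 (limma adjusted p = 0.959), and 0 of the 4 shedding genes were called by limma (0 at an unadjusted p below 0.05).

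Members differed in how far they rested on control replicate 1. The SD over control arrays was larger than over low arginine arrays for 26 of the 36 members (72.2%), against 66.2% of all genes, with a median SD over the members of 0.13 in low arginine and 0.29 in control medium, against 0.12 in low arginine and 0.18 in control medium over all genes. Without that array 7 further members passed, while calls over all genes went up to 3325, against 1799 with every array. Tnfsf4, Tnfrsf10b, Tnfrsf14 and Tnfrsf22 were higher, Tnfsf9, Cd27 and Tnfrsf1a were lower, and all 8 genes called with every array kept their call and direction.

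**Figure D5:**
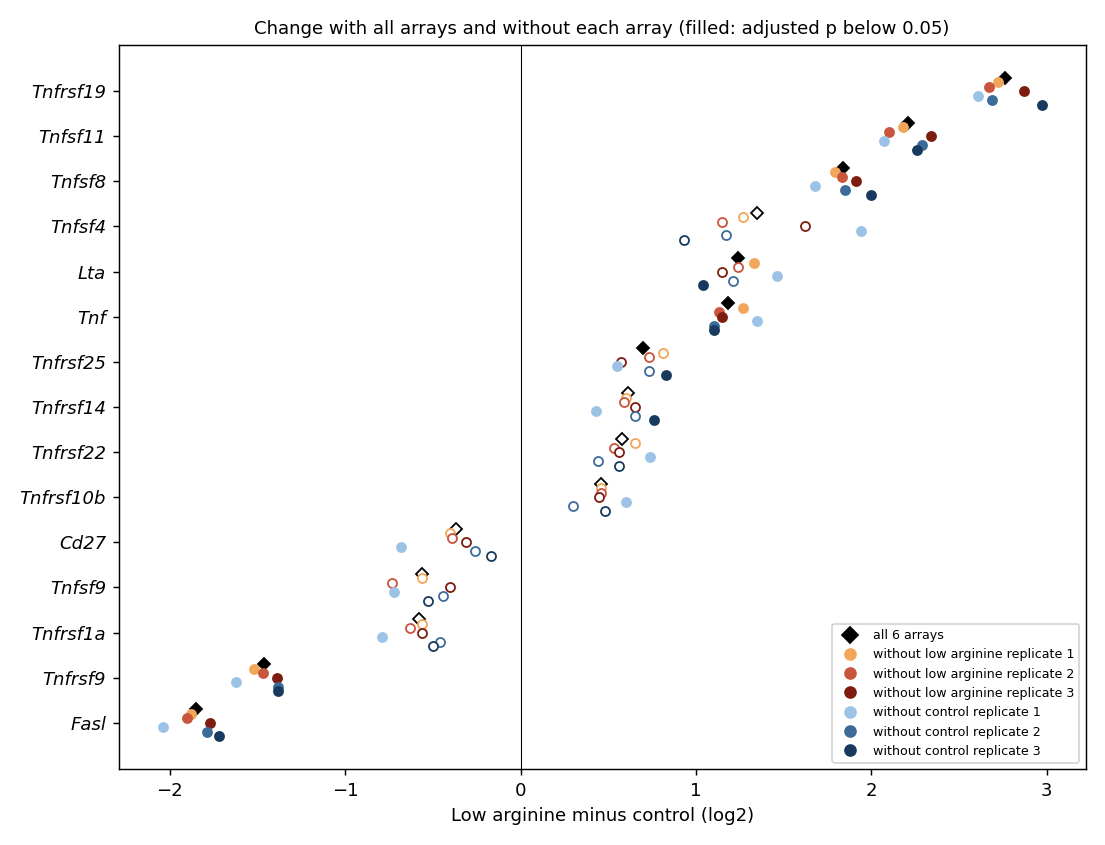
Change of the members called with all arrays or without 1 of them (x axis, log2 units, low arginine minus control), with all 6 arrays (diamond) and without each array in turn (circles), filled where the adjusted p was below 0.05. Tnfrsf19, Tnfsf11, Tnfsf8, Tnf, Tnfrsf9 and Fasl are filled throughout, Lta and Tnfrsf25 are open without some arrays, and 7 further genes are filled without control replicate 1.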

How the data were processed

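RNA of CD4 T cells was hybridised to 1-colour whole-transcript arrays, 3 per group. The authors deposited log2 expression values per probe set, normalized between arrays. Their software was the oligo package, per the submitters' processing notes. Its version and settings, and the base of the logarithm, are not stated in those notes. Base 2 was taken from the range of the values. Detection calls were not used here, so whether a dim gene lay above background is unknown.

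Of 41345 probe sets, 23521 carried 1 gene symbol and gave 22180 genes. The dimmest share of 0.333 by mean was left out (limit 2.48), which left 14787 genes. All of them were fitted together by group (limma 3.58.1, R 4.3.3: lmFit, eBayes, two-sided, with 4 residual degrees of freedom and 3.69 from the prior), with Benjamini-Hochberg adjustment over all of them and a threshold of 0.05. The fit was first tested on simulated data. The members, the signalling and marker lists (150 of 162 genes matched to the probe table, a RefSeq table of GRCm38.p6 serving older symbols) and the rule for named genes (all members, the called genes of each signalling list and a few fixed genes) were chosen with earlier results of these data known. The list genes not matched were not analysed here. Lists are described by counts and medians. Alternatives were 3 rescalings, 2 filters, the mean of probe sets, another prior, array weights, a replicate block, and the omission of single arrays. Figures were drawn with matplotlib 3.10.9.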

Additional observations from a re-analysis of the deposited data

How the results depend on the processing

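Over 15 alternatives no member reversed a call. Of the 8 called members, Tnfsf11, Tnfsf8, Tnf, Fasl, Tnfrsf19 and Tnfrsf9 (6) kept theirs in all of them. Lta (12 of 15) and Tnfrsf25 (7 of 15) did not, and 13 of the 28 members not called passed in at least 1. Neither count was made over all genes, so these counts are not read as particular to the family. Every member had 1 probe set, so the mean of probe sets could not change its level and bears little on these counts. Array weights alone called 37.3% of all genes and leaving out control replicate 1 called 22.5%, against 12.2% in the main fit. Tnfrsf25 did not pass after quantile normalization (0.65, adjusted p = 0.0527), 75th percentile centring (0.64, 0.0508), with no filter on dim genes (0.70, 0.0523) or with a trended and robust prior (0.70, 0.0516), so each of these settings left 1 receptor higher in place of 2. The receptor median was 0.08 after quantile normalization or 75th percentile centring, in place of 0.14, and 4 signalling genes rose after that centring in place of 8. With array weights 5514 genes passed in place of 1799, with 21 members (3 ligands lower, 9 receptors higher, 4 receptors lower). Of the signalling genes 16 were then higher and 7 lower. Of the markers outside the CD4 T cell list, 5 were higher and 9 lower, in place of 2 and 4. These markers include those of regulatory T cells: the 2 were Foxp3 and Gpr83, and Ctla4 was among the 4. With the replicate number as a block no member changed its call, and 4 signalling genes rose. Same-numbered arrays deviated together with correlations over genes of 0.121, 0.059 and 0.141, the highest for each array. The correlation of 0.059 lay below the limit of 0.1 set for pairing, and the labels name nothing such arrays share. They were therefore not taken as pairs. Leaving out 1 array gave 500 genes (without control replicate 2) to 3325 (without control replicate 1), 6 to 15 members, 3 to 5 ligands and 1 to 5 receptors higher, 1 to 2 ligands and 1 to 3 receptors lower, 2 to 12 signalling genes higher and 2 to 4 lower, and 1 to 4 markers higher and 3 to 7 lower. The ligand median then ran from 0.12 to 0.30 and the receptor median from 0.06 to 0.14. The causes were not tested. Depth over background is unknown for these files, so sizes of change at levels near 2.48 are uncertain.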
